A study of Mus musculus with 20 samples.

Results

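RNA levels of 9 receptors that steer leukocytes towards chemokines, sphingosine-1-phosphate (S1P), chemerin or formyl peptides were examined in monocyte-derived macrophages (MoMac) of fibrotic mouse liver. The receptors were taken by gene symbol from the 59311 genes of the annotation: Ccr1, Cxcr3, Cxcr4, Cxcr6, S1pr1, S1pr5, Cmklr1, Fpr1 and Fpr2. All 9 were measured, and all 9 were among the 17248 genes whose mean reached 10 normalized counts in at least 1 of the 4 groups. RNA was sequenced from Ly6Chi and Ly6Clo MoMac, sorted as CD11b+ F4/80+ cells without CD3, CD11c and Ly6G, from the livers of 10 male C57BL/6J mice. The mice were 10 to 12 weeks old when fibrosis was induced. Every mouse, controls included, received the hepatotoxin CCl4 (0.6 ml/kg) for 4 weeks to induce fibrosis, so that no healthy liver was compared. Around the last injection, mice 16 to 20 were given 0.25 mg/kg of the compound Ac-6-FP, which binds MR1 and prevents mucosal-associated invariant T (MAIT) cells from being activated, and mice 11 to 15 were given its vehicle, DMSO in PBS. Livers were taken 2 days after the last CCl4 injection, and both subsets came from the same liver. This gave 20 libraries in 4 groups of 5: Ly6Chi vehicle, Ly6Chi Ac-6-FP, Ly6Clo vehicle and Ly6Clo Ac-6-FP.

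The receptors all signal through G proteins and guide cells along gradients. In the liver, chemokine receptors bring monocytes from blood into injured tissue and hold them there, S1P receptors govern exit from tissue and residence in vessels, and formyl peptide receptors sense products of bacteria and of dying cells. Ly6Chi cells are known as the recently recruited, inflammatory MoMac, and Ly6Clo cells as the later, restorative ones.

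Between 5693049 and 18682437 reads were counted on genes per library, and between 5343 and 15766 genes were above 0. The Ly6Clo vehicle library of mouse 13 stood apart with the lowest values of both ranges, and 2765 of 6652 genes with a median of at least 100 normalized counts were at 0 in it. A value of 0 allows up to 3 reads, or at most 6.26 normalized counts in that library, a limit for counting error only. The number of genes above 0 had a median of 9749 in Ly6Chi vehicle, 13622 in Ly6Chi Ac-6-FP, 10379 in Ly6Clo vehicle and 14084 in Ly6Clo Ac-6-FP libraries.

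The sort was visible in the RNA. Ly6c2, a gene of the Ly6C antigen, was at 7403 ± 1691 normalized counts in Ly6Chi and 688 ± 198 in Ly6Clo MoMac (SD, n = 10 each), and all 6 markers of classical monocytes were higher in Ly6Chi cells by the limma test described next. None of the macrophage genes Itgam, Adgre1, Csf1r and Cd68 passed the test, with 1 of these 4 at an unadjusted p under 0.05 by limma and 0 by edgeR. Ly6Clo libraries also held markers of other cell types. The summed level of 7 natural killer (NK) cell markers was between 42898 and 96113 normalized counts in the 10 Ly6Clo libraries and between 0 and 672 in the 10 Ly6Chi libraries, so that the ranges were far apart. Of these 7 markers, 6 were called higher in Ly6Clo cells, and Prf1 and Eomes were at 0 in every Ly6Chi library. T cell markers summed to between 1596 and 3886 in Ly6Clo and between 0 and 531 in Ly6Chi libraries, with 3 of 6 tested markers called (2 with edgeR), but Cd3e was at 0 in all Ly6Chi and in 8 of 10 Ly6Clo libraries. Conventional dendritic cell markers summed to between 7704 and 19383 in Ly6Clo and between 27.4 and 535 in Ly6Chi libraries. Cd209a was the largest part in Ly6Clo cells, at 11870 ± 4860. Of 6 tested markers, 3 were called by limma and by edgeR (Itgax, Flt3 and Cd209a). Xcr1 (81.0 ± 95.6), Clec9a (26.6 ± 31.0) and Zbtb46 (20.3 ± 48.0 in Ly6Clo cells) were not called. Itgax, which encodes the CD11c that the gate left out, was at 1640 ± 992 in Ly6Clo cells against 0 in every Ly6Chi library. Of the other lists, 1 of 4 tested B cell, 1 of 4 Kupffer cell, 1 of 3 endothelial cell, 1 of 5 hepatocyte and 2 of 7 non-classical monocyte markers were called higher in Ly6Clo cells, of which edgeR called 1, 0, 0, 1 and 1. None of 3 plasmacytoid dendritic cell markers was called by limma (1 at an unadjusted p under 0.05, and 0 by edgeR).

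**Figure D1:**
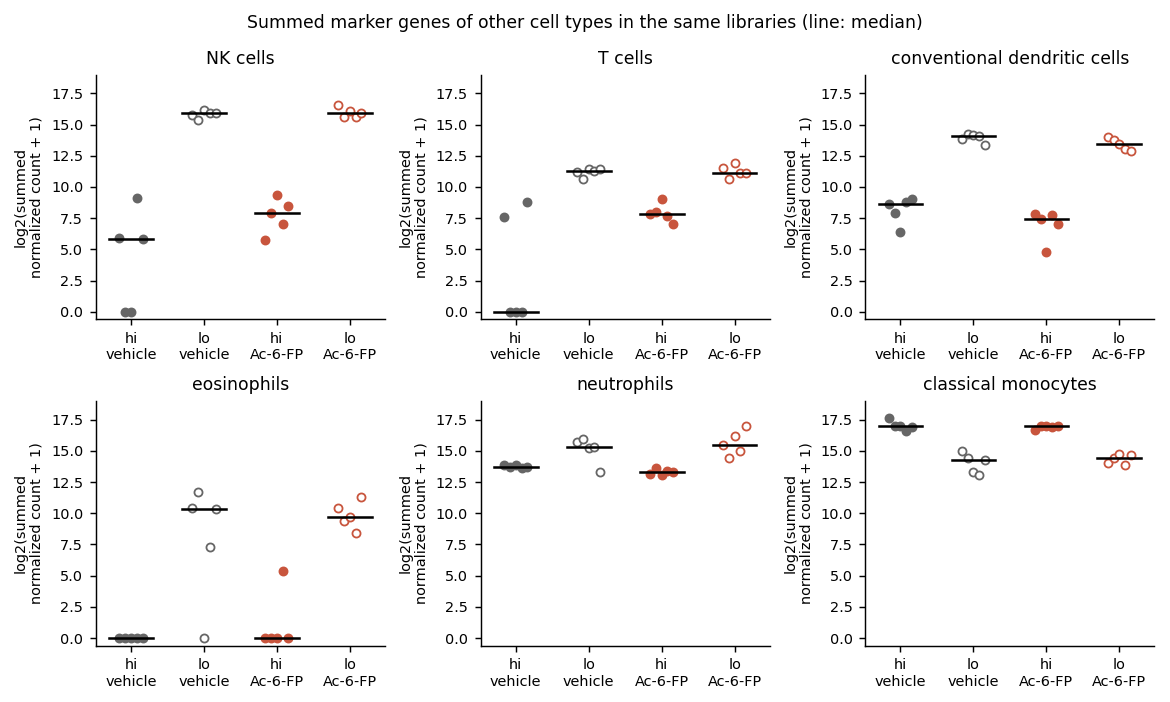
Summed normalized counts of marker genes of 6 cell types in each of the 20 libraries, on the scale log2(sum + 1), by subset (filled: Ly6Chi, open: Ly6Clo) and treatment (grey: vehicle, red: Ac-6-FP), with the group median as a line. NK cell, T cell and conventional dendritic cell sums were higher in each Ly6Clo library than in every Ly6Chi library, and classical monocyte sums were lower.

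The first question was how the receptors differed between the 2 subsets. Values were compared as log2(normalized count + 1), the difference Ly6Chi minus Ly6Clo was taken within each mouse, and limma adjusted p-values over all 17248 genes. In bulk RNA, fewer cells of a type and less RNA per cell cannot be told apart. Of the 9 receptors, 1 (Ccr1) was higher in Ly6Chi cells and 3 (Fpr1, Cxcr3 and S1pr5) were higher in Ly6Clo cells at an adjusted p under 0.05. Over all genes tested, 1.81% were called higher in Ly6Chi and 3.41% higher in Ly6Clo. The median log2 difference was -1.55 over the 9 receptors and -0.03 over all genes, and 8 of the 9 differences were negative.

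**Figure D2:**
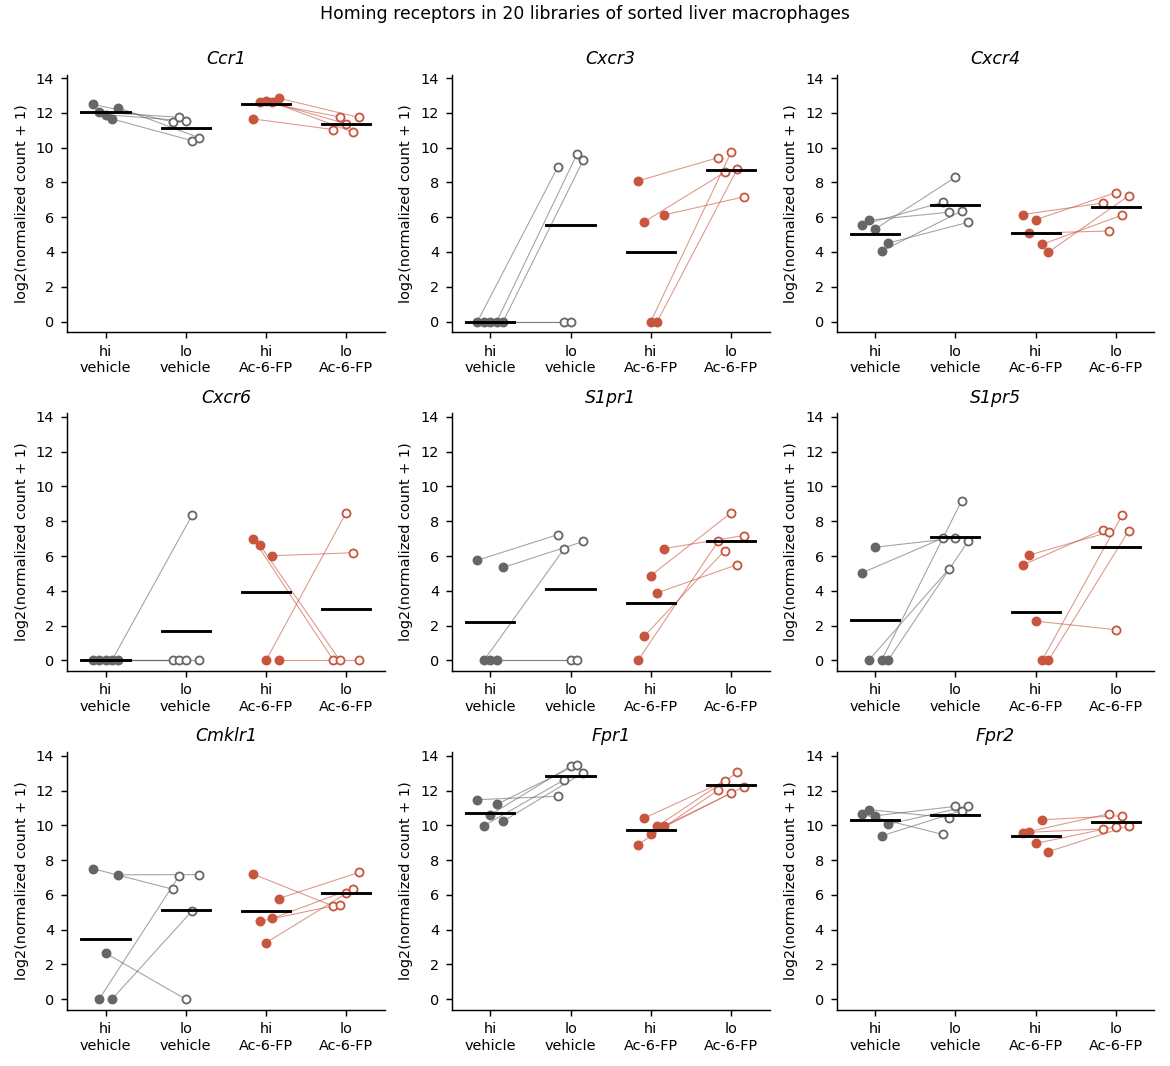
Level of each receptor in each of the 20 libraries as log2(normalized count + 1), by group (hi: Ly6Chi, filled; lo: Ly6Clo, open; grey: vehicle; red: Ac-6-FP). Thin lines join both subsets of 1 mouse and thick lines are group means. Ccr1 fell from hi to lo and Fpr1 rose in each of the 10 mice, and Cxcr3, Cxcr6, S1pr1, S1pr5 and Cmklr1 were at 0 in some libraries of the same group in which others were well above it.

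Ccr1, the receptor for CCL3, CCL5 and related chemokines (chr9:123962124-123968693, minus strand, mm10, 2 exons), was the only receptor called higher in Ly6Chi cells. Its normalized counts in mice 11 to 15 were 5763, 4198, 3804, 3208 and 5036 in Ly6Chi MoMac and 2853, 3423, 2972, 1344 and 1527 in Ly6Clo MoMac. In mice 16 to 20 they were 3204, 6368, 6591, 6239 and 7339 in Ly6Chi and 2098, 3477, 2642, 1899 and 3395 in Ly6Clo MoMac. Each Ly6Chi library exceeded the Ly6Clo library of its own mouse, and 8 of 10 exceeded every Ly6Clo library. A positive difference in all 10 mice was found for 1.87% of all genes. The log2 difference was 1.03 ± 0.16 (SE; adjusted p = 0.00244, limma), with a two-sided exact sign-flip permutation p of 0.00195 over n = 10 mice, the smallest that this test can give. It was 1.10 without mouse 13 (adjusted p = 0.00189). An unnamed gene of the annotation overlaps Ccr1 and had values within 5% of it in 17 of 20 libraries, so that reads of both cannot be told apart.

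Fpr1, which encodes the high-affinity receptor for formylated peptides (chr17:17876488-17883941, minus strand, 2 exons), differed in the opposite direction. In mice 11 to 15 it was at 2840.0, 1007, 1561, 2364 and 1203 normalized counts in Ly6Chi and at 3264, 6259, 10882, 11419 and 8367 in Ly6Clo MoMac. In mice 16 to 20 it was at 470.2, 1369, 730, 984 and 984 in Ly6Chi and at 4155, 5955, 3697, 8417 and 4757 in Ly6Clo MoMac. The subsets did not overlap: the lowest Ly6Clo library (mouse 11, vehicle) lay above the highest Ly6Chi library (the same mouse). The log2 difference was -2.37 ± 0.25 (SE; limma adjusted p = 0.00012), a 5.16-fold higher level in Ly6Clo cells, and it was negative in all 10 mice (exact p = 0.00195), against 1.98% of all genes that were. Without mouse 13 it was -2.29 (adjusted p = 0.000408). Mouse 11 had the smallest difference of the 10, -0.2 on the log2 scale. Neutrophil markers, from a cell type known for formyl peptide receptors, summed to between 10090 and 130226 in Ly6Clo and between 8756 and 15089 in Ly6Chi libraries, with 3 of 7 called higher in Ly6Clo and 1 higher in Ly6Chi cells. In mice 11 to 20 the Ly6Clo sums were 54152, 61539, 37320, 40002, 10090, 44636, 21458, 72737, 32769 and 130226. Only in mouse 15 was the Ly6Clo sum below the Ly6Chi sum (13196) of the same mouse. Retnlg, the largest part of the neutrophil sum in Ly6Clo cells, was at 40889 ± 31434 there and at 114 ± 150 in Ly6Chi cells. Ly6g was at 0 in 4 of 10 libraries of either subset, and eosinophil markers, at or under 39.5 in Ly6Chi libraries, reached 3377 in Ly6Clo libraries with Epx at 0 in all 20. The part of neutrophils and eosinophils in the Fpr1 difference was not tested.

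Upstream sequences of Ccr1 and Fpr1 are shown because these were the receptors with the clearest differences, in opposite directions. They are the 250 bases before the RefSeq start of each gene (GRCm38.p6, the build also called mm10), 5′ to 3′ on the gene's strand. The Ccr1 window is chr9:123968693-123968942 and the Fpr1 window chr17:17883940-17884189, both on the minus strand. Capitals mark matches to 7 motifs searched on both strands.
Ccr1: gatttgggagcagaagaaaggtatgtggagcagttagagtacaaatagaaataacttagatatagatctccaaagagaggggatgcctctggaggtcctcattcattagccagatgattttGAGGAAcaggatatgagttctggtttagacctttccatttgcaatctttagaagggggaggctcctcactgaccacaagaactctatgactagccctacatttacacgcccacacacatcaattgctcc
Fpr1: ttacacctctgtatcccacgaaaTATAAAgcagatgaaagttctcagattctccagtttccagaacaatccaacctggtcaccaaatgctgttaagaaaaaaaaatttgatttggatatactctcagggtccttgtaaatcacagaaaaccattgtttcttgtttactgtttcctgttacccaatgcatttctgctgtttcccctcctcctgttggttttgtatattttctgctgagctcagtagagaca
Ccr1 held 1 match, from base -129, to the PU.1-type ETS motif GAGGAA, which 23.3% of 32851 promoter windows of this length also held. Fpr1 held 1 match, from base -227, to the TATA box letters TATAAA, present in 12.4% of windows. Neither window held the KLF motif CCACCC, which 28.1% of all windows contained. The same was true of the AP-1 motif TGANTCA, found in 6.7% of all windows. The C/EBP motif TTGCNNCAA, present in 1.7% of windows, was in neither. The NR4A motif AAAGGTCA (1.3% of windows) and the NF-kB motif (1.2%) were not in them either. Of the 8 receptors with a promoter in the table (all but S1pr1), 4 held the ETS letters (Ccr1, Cxcr3, Cmklr1 and Fpr2), 3 those of the TATA box (Cxcr4, Fpr1 and Fpr2) and 1 those of KLF (S1pr5). These matches are letters in a window and were not tied to the levels.

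Fpr2, the second formyl peptide receptor, which also binds annexin A1 and lipoxins, lay much closer between the subsets. In mice 11 to 15 it was at 1587, 1918, 1497, 671 and 1064 normalized counts in Ly6Chi and at 714, 1383, 2179, 1847 and 2193 in Ly6Clo MoMac. In mice 16 to 20 it was at 768, 797, 496, 1279 and 358 in Ly6Chi and at 884, 1630, 972, 1504 and 1004 in Ly6Clo MoMac. The groups overlapped widely, although 8 of 10 mice had more in Ly6Clo cells. The log2 difference of -0.53 (95% interval -1.13 to 0.06) did not pass the test (limma adjusted p = 0.349). The deposited Fpr2 gene spans chr17:17887822-17971677 and so also holds Fpr3. Of the 75-base windows of Fpr2 transcripts, 20.9% also occur in Fpr3 or Gm5966, so that reads of these genes cannot be told apart there.

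Among the lymphocyte-type chemokine receptors, Cxcr3, the receptor for CXCL9 and CXCL10, showed a large but irregular difference. In Ly6Chi MoMac it was at 0 in all 5 vehicle libraries and at 270.4, 52.4, 0, 0 and 68.6 normalized counts in mice 16 to 20. In Ly6Clo MoMac it was at 469, 0, 0, 788 and 626 in mice 11 to 15 and at 685, 380.2, 842, 442 and 143 in mice 16 to 20. Ly6Clo exceeded Ly6Chi cells in 8 mice, and both were at 0 in mice 12 and 13. The log2 difference was -5.15 ± 1.33 (SE; limma adjusted p = 0.0473), with an exact permutation p of 0.00781 over n = 10 mice. Against the 3 reads that a value of 0 allows in each library, the level in Ly6Clo vehicle libraries was at least 131-fold higher than in Ly6Chi vehicle libraries. This bound covers counting error only. With any 1 mouse left out the log2 difference stayed between -5.85 and -4.53. Its adjusted p, close to the threshold with all mice, rose above it when any one of mice 11, 14, 15, 16, 17, 18, 19 or 20 was left out (0.0817 to 0.143) and was 0.0244 without mouse 13. The call was also lost with a pseudocount of 0.1 (adjusted p = 0.0703), without a filter (0.0765) and with edgeR's quasi-likelihood test on the recovered reads (0.108). NK and T cells are known for CXCR3, and the sums of their markers, given above, were higher in every Ly6Clo library. Their part in the Cxcr3 difference was not tested. An unnamed overlapping gene held values within 5% of Cxcr3 in 14 of 20 libraries (chrX:101731532-101734147).

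Cxcr4, the receptor for CXCL12 that retains leukocytes in tissue and marrow (chr1:128588199-128592299), was low in both subsets but above 0 in all 20 libraries. It was at 46.0, 55.7, 38.8, 15.5 and 21.8 normalized counts in Ly6Chi and at 115, 76.8, 313, 80.9 and 51.0 in Ly6Clo cells of mice 11 to 15. In mice 16 to 20 it was at 69.9, 32.7, 56.6, 20.6 and 14.9 in Ly6Chi and at 112, 35.9, 169.8, 68.5 and 149 in Ly6Clo cells. Ly6Clo exceeded Ly6Chi cells in each of the 10 mice, with an exact permutation p of 0.00195 over n = 10, and 7 of 10 Ly6Clo libraries exceeded every Ly6Chi library. With limma the log2 difference of -1.55 ± 0.52 (SE) did not pass the threshold over all genes (adjusted p = 0.129, or 0.136 without mouse 13). As 1.98% of all genes were also lower in Ly6Chi cells of every mouse, the single-gene test alone does not set Cxcr4 apart.

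Cxcr6, the receptor for CXCL16 that marks liver-resident lymphocytes, was above 0 in 6 of 20 libraries. In Ly6Chi cells it was at 0 in the 5 vehicle libraries and at 127, 99.9, 0, 63.6 and 0 normalized counts in mice 16 to 20. In Ly6Clo cells it was at 327 in mouse 14, 361 in mouse 18 and 72.0 in mouse 19, and at 0 in the other libraries. Only mouse 19 had it in both subsets. The log2 difference between subsets was -0.34 with a 95% interval from -3.53 to 2.86 (limma adjusted p = 0.923), on both sides of 0. Cxcr6 (chr9:123806474-123811757, plus strand) lies inside the Fyco1 locus without sharing an exon.

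Both S1P receptors had lower means in Ly6Chi than in Ly6Clo cells. S1pr5, which lets NK cells and Ly6Clo monocytes leave the marrow (chr9:21242917-21248443), was at 31.9, 0, 90.0, 0 and 0 normalized counts in Ly6Chi and at 129, 37.2, 129, 583 and 115 in Ly6Clo cells of mice 11 to 15. In mice 16 to 20 it was at 43.7, 65.5, 3.78, 0 and 0 in Ly6Chi and at 182, 166, 2.39, 327 and 174 in Ly6Clo cells. Ly6Clo was the higher of the pair in 9 mice, all but mouse 18, where both values rested on 4 reads or fewer. The log2 difference was -4.25 ± 1.11 (SE; limma adjusted p = 0.0496), with an exact permutation p of 0.00391 over n = 10 mice. With any 1 mouse left out it stayed between -4.78 and -3.67. The adjusted p, at the threshold with all mice, rose above it without any one of mice 11, 12, 14, 15, 16, 17, 19 or 20 (0.0717 to 0.143), with a pseudocount of 0.1 (0.07), without a filter (0.0782) and with edgeR (0.386). It held without mouse 13 (adjusted p = 0.0312). NK cell markers moved in the same direction as S1pr5, as given above. Of 7 non-classical monocyte markers, 2 were called higher in Ly6Clo cells (Ace and Treml4; Treml4 alone with edgeR) and 1 difference, that of Nr4a1, was positive. The median log2 difference of these 7 was -1.23 in all mice, -0.08 in vehicle mice (3 of 7 positive) and -2.10 in Ac-6-FP mice (0 of 7 positive), and their sums overlapped, from 5172 to 25092 in Ly6Chi and from 6881 to 58571 in Ly6Clo libraries. The part of either cell type in the S1pr5 difference was not tested.

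S1pr1, which draws lymphocytes out of tissue towards S1P in lymph and blood (chr3:115710433-115715055), was at 53.1, 0, 0, 0 and 39.6 normalized counts in Ly6Chi and at 149, 84.2, 0, 0 and 113 in Ly6Clo cells of mice 11 to 15. In mice 16 to 20 it was at 0, 1.64, 28.3, 13.8 and 85.0 in Ly6Chi and at 114, 78.5, 356, 44.5 and 144 in Ly6Clo cells. Wherever it was detected, the Ly6Clo library of the mouse was the higher one (8 mice), and mice 13 and 14 were at 0 in both subsets. The difference of -2.71 on the log2 scale (95% interval -4.58 to -0.85, exact permutation p = 0.00781 over n = 10) did not pass the limma threshold over all genes (adjusted p = 0.106), and did so only with a pseudocount of 10 (adjusted p = 0.0474).

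Cmklr1, the chemerin receptor of macrophages and dendritic cells (chr5:113612355-113650392), varied within groups more than between them. Its values in Ly6Chi cells were 181, 0, 5.29, 0 and 141 in mice 11 to 15 and 146, 21.3, 8.5, 24.1 and 54.4 in mice 16 to 20. In Ly6Clo cells they were 79.1, 138, 0, 32.9 and 143 and then 39.7, 42.6, 66.9, 81.4 and 156. Ly6Clo was higher in 7 mice and Ly6Chi in 3, and the log2 difference was -1.36 with an interval from -3.50 to 0.79 (limma adjusted p = 0.509).

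**Figure D3:**
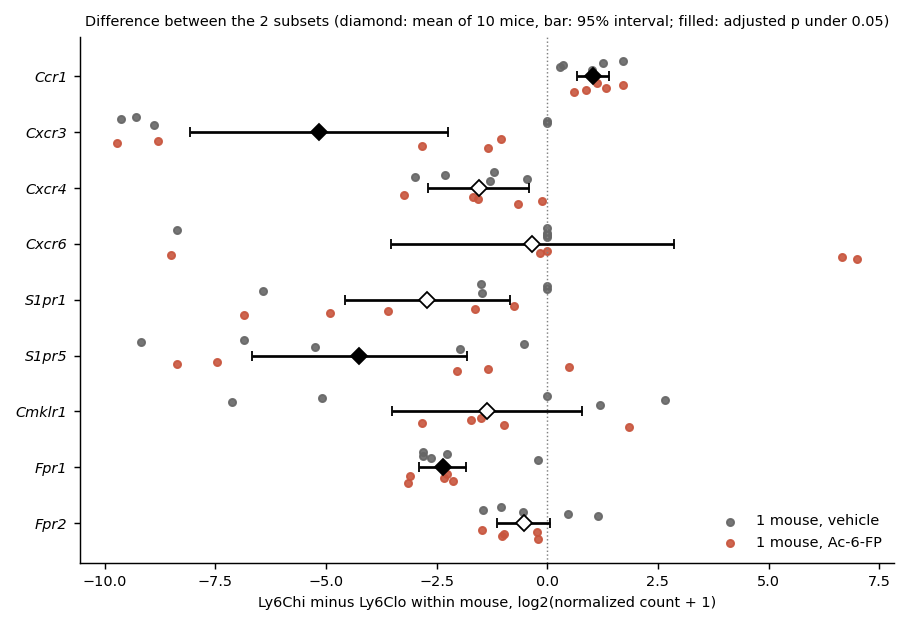
Ly6Chi minus Ly6Clo within each mouse on the scale log2(normalized count + 1), one dot per mouse (grey: vehicle, red: Ac-6-FP), with the mean of 10 mice as a diamond (filled: limma adjusted p under 0.05) and its 95% interval as a bar. Dots of Ccr1 and Fpr1 cluster near 1.03 and -2.37, while those of Cxcr3 and S1pr5 spread from near 0 to below -9.

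Taken within treatments, the differences of Ccr1 and Fpr1 kept their direction in each mouse. In vehicle mice Fpr1 alone was called (-2.14 ± 0.35, SE, adjusted p = 0.00611 by limma), against 2.35% of all genes called, and Ccr1 had 0.93 ± 0.23 with an adjusted p of 0.0681. Without mouse 13 Ccr1 passed too (adjusted p = 0.0413), and without mouse 15 Fpr1 no longer did (adjusted p = 0.052). In Ac-6-FP mice both were called, Ccr1 at 1.13 ± 0.23 (adjusted p = 0.0215) and Fpr1 at -2.59 ± 0.35 (adjusted p = 0.00167), against 2.94% of all genes. Ccr1 lost that call without any one of mice 17, 18, 19 or 20 (adjusted p from 0.0655 to 0.107). The other 7 receptors passed in neither treatment alone. In vehicle and in Ac-6-FP mice, respectively, the log2 difference Ly6Chi minus Ly6Clo was -5.56 and -4.75 for Cxcr3, -4.76 and -3.73 for S1pr5, -1.88 and -3.55 for S1pr1, and -1.65 and -1.46 for Cxcr4. It was -1.67 and -1.04 for Cmklr1, -0.28 and -0.78 for Fpr2, and -1.67 and 1.00 for Cxcr6, the only receptor whose estimates differed in sign. Adjusted p-values of these 7 by limma were between 0.192 and 0.776 in vehicle and between 0.192 and 0.957 in Ac-6-FP mice. With 5 mice an exact sign-flip test cannot go below p = 0.062.

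The second question was whether Ac-6-FP changed the receptors within a subset. No receptor passed the limma threshold in Ly6Chi MoMac, where 0.0754% of all genes did, or in Ly6Clo MoMac, where 0.0522% did. At an unadjusted p under 0.05, there were 4 of 9 receptors in Ly6Chi cells with limma (3 with edgeR) and 0 of 9 in Ly6Clo cells (0 with edgeR). Of all 17248 genes, 1506 and 1605 were under it with limma in Ly6Chi and Ly6Clo cells, and 1541 and 1614 with edgeR. More genes were above 0 after Ac-6-FP in both subsets, as given above, and the median log2 difference of all tested genes was 0.35 in Ly6Chi and 0.91 in Ly6Clo cells. With quantile normalization these medians were -0.015 and 0.021, so differences below are best read against them.

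Fpr1 had the clearest values. In Ly6Chi cells its mean was 1795 ± 781 normalized counts with vehicle and 907 ± 335 with Ac-6-FP (SD, n = 5 each). Of the 5 Ac-6-FP libraries, 4 lay below every vehicle library, while mouse 17 (1369) overlapped with them. The log2 difference was -0.96 with a 95% interval from -1.79 to -0.13. Its two-sided exact permutation p was 0.0397 (n = 5 against 5, smallest possible 0.00794), but the limma p adjusted over all genes was 0.543, and stayed at 0.406 or above under all 18 alternatives. Groups that did not overlap at all were found for 1.35% of genes in Ly6Chi and 1.5% in Ly6Clo cells, and none of the 9 receptors was among them. In Ly6Clo cells Fpr1 was at 8038 ± 3376 with vehicle and 5396 ± 1889 with Ac-6-FP, a log2 difference of -0.51 (interval -1.33 to 0.32, adjusted p = 0.613 by limma). Neutrophil markers in the same Ly6Chi libraries summed to between 12412 and 15089 with vehicle and between 8756 and 12454 with Ac-6-FP (medians 13196 and 9832), with 4 of 5 treated libraries below every vehicle library and mouse 17 again the exception. None of these 7 markers was called, with 2 at an unadjusted p under 0.05 by limma (Mmp8 with a negative and Ly6g with a positive difference) and 1 by edgeR, and 4 of the 7 differences were positive. Over all 10 Ly6Chi libraries the sum came mostly from Mmp8 (7356 ± 1945) and S100a8 (3982 ± 1111, SD). Mmp8 was also called higher in Ly6Chi than in Ly6Clo cells (limma adjusted p = 0.00284). Camp and Ngp were at 0 in 9 of these 10 libraries, and Ly6g (2.20 ± 4.98) and Retnlg (114 ± 150) were low. The part of the 7 neutrophil markers in the Fpr1 and Fpr2 values was not tested.

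Fpr2 moved in the same direction as Fpr1 without passing the test. In Ly6Chi cells its mean was 1347 ± 486 with vehicle and 739 ± 354 with Ac-6-FP, and only 2 of 5 treated libraries lay below every vehicle library. The log2 difference of -0.91 (interval -1.80 to -0.02) had an exact permutation p of 0.0635 (n = 5 against 5) and an adjusted p of 0.56. In Ly6Clo cells it was at 1663 ± 625 and 1199 ± 342, a log2 difference of -0.41 with an interval from -1.18 to 0.36.

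Ccr1 was at 4402 ± 1010.0 with vehicle and 5948 ± 1592 with Ac-6-FP in Ly6Chi cells. There 4 of 5 treated libraries were above every vehicle library, and mouse 16 (3204) was just below all of them. The log2 difference of 0.41 (interval -0.15 to 0.97) was close to the median of all genes and had an exact permutation p of 0.159 (n = 5 against 5). In Ly6Clo cells Ccr1 was at 2424 ± 929 and 2702 ± 724 (log2 difference 0.21, interval -0.50 to 0.92).

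Cxcr3 and Cxcr6 shared one pattern in Ly6Chi cells: each was at 0 in all 5 vehicle libraries and above 0 in 3 of 5 Ac-6-FP libraries, mice 16, 17 and 20 for Cxcr3 and mice 16, 17 and 19 for Cxcr6. Against the 3 reads that a 0 allows, Ac-6-FP means of 78.3 and 58.2 normalized counts were at least 27.2-fold and 20.2-fold higher. Without mouse 16, which held the most Cxcr3, the bound for Cxcr3 was 10.5-fold. Exact permutation p was 0.167 for either gene (n = 5 against 5), and the limma adjusted p was 0.543 for both. T and NK cell markers in the same Ly6Chi libraries also had higher medians after Ac-6-FP, 224 against 0 for T cells and 245 against 56.4 for NK cells, with overlapping ranges and none of their genes called; at an unadjusted p under 0.05 there were 1 of 6 and 0 of 7 by limma, and 2 and 0 by edgeR. In the Ly6Chi libraries of mice 16 to 20 the T cell sums were 224, 254, 531, 209 and 130. The NK cell sums were 51.8, 245, 672, 131 and 363. Mouse 18, highest in both sums, had Cxcr3 and Cxcr6 at 0. The part of these markers in the values of Cxcr3 and Cxcr6, and that of the larger number of detected genes, was not tested. In Ly6Clo cells Cxcr3 was above 0 in all 5 Ac-6-FP and in 3 of 5 vehicle libraries, with a log2 difference of 3.18 (interval -1.66 to 8.01, limma adjusted p = 0.6). Cxcr6 was above 0 in 2 of 5 Ac-6-FP and 1 of 5 vehicle libraries, with 1.27 (-3.98 to 6.51).

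The 4 remaining receptors gave wide intervals for Ac-6-FP minus vehicle. Cxcr4 had log2 differences of 0.05 (interval -1.38 to 1.48) in Ly6Chi and -0.14 (-1.58 to 1.30) in Ly6Clo cells. S1pr1 had 1.10 (-2.87 to 5.07) and 2.77 (-1.01 to 6.55), S1pr5 0.45 (-3.78 to 4.68) and -0.58 (-3.46 to 2.31), and Cmklr1 1.61 (-2.39 to 5.60) and 0.97 (-2.08 to 4.01). Some group means ran against these signs. In Ly6Chi cells S1pr5 was at 24.4 with vehicle and 22.6 with Ac-6-FP, and Cmklr1 at 65.63 and 50.75. In Ly6Clo cells Cmklr1 was at 78.4 and 77.3. In Ly6Clo cells S1pr1 was above 0 in all 5 Ac-6-FP libraries and in 3 of 5 vehicle libraries, with means of 148 ± 123 and 69.3 ± 67.3. These data could not show changes of S1pr1, S1pr5 or Cmklr1 smaller than several-fold.

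**Figure D4:**
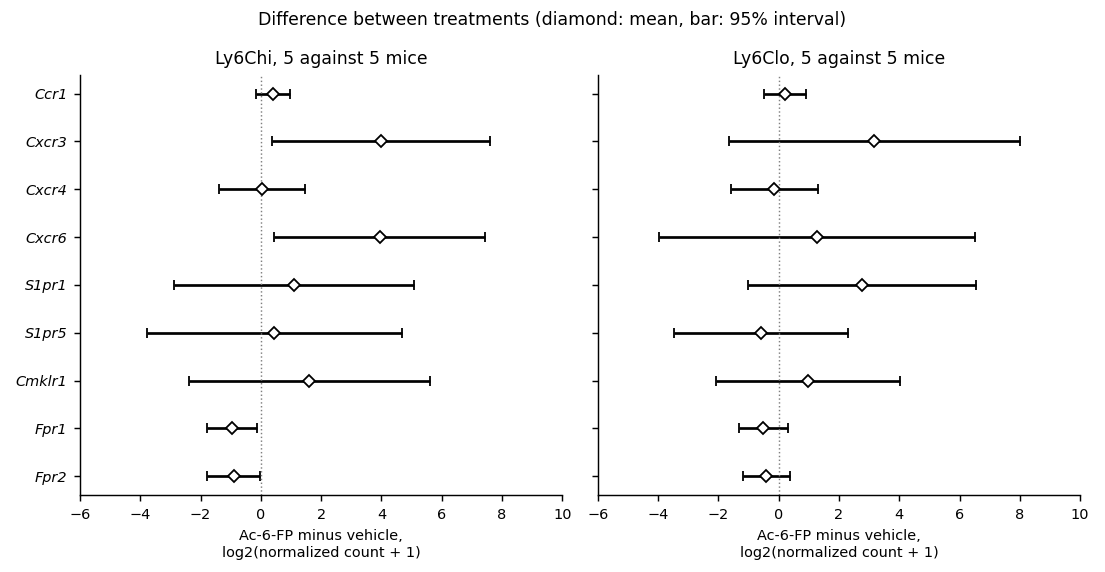
Ac-6-FP minus vehicle within Ly6Chi (left) and Ly6Clo MoMac (right), 5 against 5 mice, on the scale log2(normalized count + 1), with the mean as a diamond and the 95% interval as a bar. The Fpr1 and Fpr2 intervals lay below 0 in Ly6Chi cells before adjustment, those of Cxcr3 and Cxcr6 above it, and the intervals of low receptors were several units wide.

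The third question was whether Ac-6-FP acted differently on the 2 subsets, tested as the difference between treatments in the within-mouse values. No receptor was called with limma, at an unadjusted p under 0.05 there were 0 of 9 with limma and 0 of 9 with edgeR, and 0% of all genes were called. The estimate was -0.45 (interval -1.53 to 0.63) for Fpr1, -0.50 (-1.69 to 0.69) for Fpr2 and 0.20 (-0.51 to 0.91) for Ccr1. It was 0.81 (-5.01 to 6.64) for Cxcr3, 0.19 (-2.08 to 2.46) for Cxcr4 and 2.67 (-3.72 to 9.06) for Cxcr6. S1pr1 had -1.67 (-5.40 to 2.05), S1pr5 1.03 (-3.83 to 5.88) and Cmklr1 0.64 (-3.66 to 4.93). These intervals do not show equal changes in both subsets.

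Other genes of the same pathways were counted from lists of receptors, ligands and signalling genes. Of 19 other chemokine receptors 13 were tested, of which 1 was higher in Ly6Chi and 4 in Ly6Clo cells. With edgeR 3 of these 5 were called, Cxcr2 (adjusted p = 0.0884) and Ccrl2 (0.0576) being lost. Ccr3, Ccr4, Ccr6, Ccr7, Cxcr2 and Cxcr5 reached the filter mean of 10 in Ly6Clo groups only, so the filter favoured negative differences. The counts by direction are therefore no test of a shift of the whole list. Ccr2, the receptor that brings classical monocytes out of marrow, was at 17035 ± 3622 in Ly6Chi and 6777 ± 2612 in Ly6Clo cells (log2 difference 1.403 ± 0.20, SE, limma adjusted p = 0.00118). Ccr3, a receptor known from eosinophils, was at 0 in all Ly6Chi libraries and at 5982 ± 5396 in Ly6Clo cells. That was at least 2270.0-fold higher, a bound for counting error only. Ccr7, which leads dendritic cells to lymph nodes, was at 3154 ± 3206 in Ly6Clo against 4.74 ± 11.2 in Ly6Chi cells, and Cxcr2, the neutrophil receptor, at 371 ± 425 against 4.84 ± 15.3.

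Of the anaphylatoxin receptors, C3ar1 (-1.43 ± 0.35, SE) and C5ar1 (-0.70 ± 0.17) were called higher in Ly6Clo cells, 2 of the 3 tested genes of their list. With edgeR C3ar1 kept its call and C5ar1 did not (adjusted p = 0.0715). Of the same list, the formyl peptide receptor genes Fpr-rs3, Fpr-rs4 and Fpr-rs6 and the chemerin receptor gene Gpr1, named after their values were seen, were at 0 in all 20 libraries. Among 14 tested lipid receptors 1 was called, the lysophosphatidic acid receptor Lpar6, which was higher in Ly6Chi cells (log2 difference 1.27 ± 0.18, SE). None of the 4 tested genes of S1P synthesis and breakdown (Sphk2, Sgpl1, Sgpp1 and Plpp1) was called between subsets by limma. With limma as with edgeR, 1 was at an unadjusted p under 0.05. The S1P transporter genes Spns2 and Mfsd2b were below the filter and not tested.

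Ligands of the 9 receptors were measured too: of 10 tested, 2 were called higher in Ly6Chi and 3 in Ly6Clo cells, and edgeR called 4 of these 5, all but Ccl7 (adjusted p = 0.0864). Ccl5, a ligand of CCR1 also made in bulk by NK and T cells, was at 36722 ± 10215 in Ly6Clo and 164 ± 171 in Ly6Chi cells. Cxcl16, the ligand of CXCR6, was at 1094 ± 508 against 83.5 ± 58.3. The opposite held for Ccl7 (7.0 ± 16.2 in Ly6Clo, 102 ± 91.8 in Ly6Chi cells) and for Anxa1, the annexin that signals through formyl peptide receptors, at 10496 ± 2430 in Ly6Clo and 24487 ± 5571 in Ly6Chi cells (log2 difference 1.22 ± 0.11, SE, limma adjusted p = 5.04e-05). Fpr1 and Anxa1 differed between subsets in opposite directions.

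Of 17 tested genes of receptor signalling and desensitisation, 4 were called, all higher in Ly6Clo cells. They were Rgs1 (-4.87 ± 0.95, SE) and Rgs2 (-0.80 ± 0.17), which shorten G protein signals, Cd69 (-4.50 ± 0.81), whose product removes S1PR1 from the cell surface, and the G protein subunit gene Gnb1 (-0.41 ± 0.09). With edgeR 3 were called, all but Gnb1 (adjusted p = 0.134). None of the genes on these lists was called by limma or edgeR between treatments in either subset. At an unadjusted p under 0.05, limma and edgeR found 1 and 1 of the 13 other chemokine receptors in either subset, 2 and 2 of the 14 lipid receptors in Ly6Chi and 4 and 2 in Ly6Clo cells, and 2 and 1 of the 17 signalling genes in Ly6Chi and 2 and 2 in Ly6Clo cells. They found 1 and 1 of the 10 ligands in Ly6Chi and 0 and 0 in Ly6Clo cells, 0 and 0 of the 3 formyl peptide and anaphylatoxin genes in Ly6Chi and 1 and 1 in Ly6Clo cells, and 0 of the 4 S1P genes in either subset with either tool.

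Genes with the most similar pattern were sought for the 4 receptors above 0 in all 20 libraries, among 2500 genes that were too, by Spearman's rho as a description across libraries that share subset and depth. For Fpr1 they were Gngt2 (rho = 0.955), Pilra (0.92) and Rab19 (0.919). Within Ly6Clo libraries the rho of Fpr1 and Gngt2, a G protein gamma subunit, was 0.952 (n = 10), and within Ly6Chi libraries it was 0.685. For Ccr1 they were Tifa (0.857), Tmem205 (0.829) and Snx1 (0.812), for Cxcr4 1700020I14Rik (0.829), Ccl6 (0.823) and Ccl3 (0.814), and for Fpr2 Clec4a3 (0.802), Ptpn12 (0.771) and Fam103a1 (0.753). Fpr2 and Clec4a3 kept a rho of 0.818 within Ly6Chi and 0.794 within Ly6Clo libraries. For Ccr1 and Tifa it was 0.503 within Ly6Chi and 0.479 within Ly6Clo libraries, below the value over all 20.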

How the data were processed

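From low-input libraries, the authors aligned reads of 75 bases with STAR 2.4.0 to mm10 and counted them on the constitutive regions of FAST DB genes. The deposited values are signal values: counts the authors divided by a DESeq2 size factor per library, without division by gene length, called normalized counts here. Of the values above 0, 100.0% were whole multiples of 1 step per library (tolerance 0.006), which gave back the reads. In the Ly6Chi library of mouse 15 that step was 0.989, too close to 1 for a separate test of whole reads, so edgeR was also run without mouse 15, an alternative chosen after seeing the data. All 20 columns were matched to samples by mouse number and subset letter.

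Genes were tested on the scale log2(normalized count + 1) if they had a mean of at least 10 in 1 of 4 groups, with limma 3.58.1 in R 4.3.3. Both libraries of a mouse were paired by the labels: the replicate block is the mouse, although residuals of the same mouse correlated little (median 0.0338, with 1 of 10 pairs above 0.1). P-values were adjusted by Benjamini-Hochberg and called under 0.05. Exact permutation tests used scipy 1.17.1, and edgeR 4.0.16 (quasi-likelihood test) was run on the recovered reads, where it called 511 genes between subsets. All 9 receptors were named in each comparison, genes of the pathway lists if called (at most 4 per list), and 3 similar genes for each receptor above 0 in all libraries. List and marker genes named for a lost edgeR call, for the filter or for their part in a sum were named after their values were seen. The receptors, lists and markers were chosen with earlier results of these data known.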

Additional observations from a re-analysis of the deposited data

Results flagged for a closer look

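In groups of 5 libraries, the gap between the most distant library and its nearest neighbour was compared with Dixon's critical value (0.71 of the range). Normally distributed values exceed it in about 1 in 20 groups. Of 36 groups (9 receptors in 4 groups) 6 exceeded it. Normalized counts with many zeros are not normally distributed, so these 6 cannot be read against that rate. Ccr1 was at 3204 in the Ly6Chi Ac-6-FP library of mouse 16, against 6239 to 7339 in the other 4. The same library held the most Cxcr3 of its group, 270.4 against 0 to 68.6. Cxcr4 was at 313 in the Ly6Clo vehicle library of mouse 13, the library with the fewest genes detected, against 51.0 to 115 in the others. Cxcr6 was at 327 in the Ly6Clo vehicle library of mouse 14 and at 0 in the other 4, and at 361 in the Ly6Clo Ac-6-FP library of mouse 18, against 0 to 72.0. S1pr5 was at 583 in the Ly6Clo vehicle library of mouse 14, against 37.2 to 129. No receptor had within-mouse differences of one sign in all vehicle mice and the opposite sign in all Ac-6-FP mice.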

How the results depend on the processing

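Of the 9 receptors, 4 were called between subsets in all mice. Only 2 of them, Ccr1 and Fpr1, were called with a pseudocount of 0.1, without a filter on low values, with edgeR and with edgeR without mouse 15, and these 2 were called under all 19 alternatives. With one mouse left out the count was between 2 and 4, while the Cxcr3 and S1pr5 differences kept their sign. Without the replicate block (subsets compared as unpaired groups) it was 4, and the pairing changed no count of calls. In vehicle mice the count was 1, and it was 2 with a filter at a mean of 100, with quantile normalization and with a covariate for genes above 0 per library, 0 with edgeR without mouse 15, and between 0 and 2 with one mouse left out. In Ac-6-FP mice it was 2, and between 1 and 2 with one mouse left out. For Ac-6-FP minus vehicle and its difference between subsets it was 0 under every alternative run.

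Some differences that were not called changed sign. In Ly6Chi cells, Ac-6-FP minus vehicle became -1.45 for Cxcr4 with quantile normalization and -0.0116 with edgeR without mouse 15. With the covariate it became -1.17 for S1pr1, -0.11 for S1pr5 and -1.31 for Cmklr1. With edgeR it became -0.12 for S1pr5 (-0.45 without mouse 15) and -0.38 for Cmklr1. In Ly6Clo cells it became 0.31 for Cxcr4 and -0.69 for Cmklr1 with the covariate, -0.58 for Cmklr1 with quantile normalization and -0.07996 with edgeR, and -0.009365 for Ccr1 and -0.0464 for Cxcr6 with edgeR without mouse 15. With one mouse left out, the Ly6Chi values ranged from -0.21 to 0.33 for Cxcr4 and from -0.37 to 1.499 for S1pr5. The Ly6Clo values ranged from -0.39 to 0.26 for Cxcr4, -0.12 to 2.94 for Cxcr6, -1.04 to 0.61 for S1pr5 and -0.31 to 1.48 for Cmklr1. The subset difference of Cxcr6 ranged from -1.09 to 0.85, and the difference between subsets in the Ac-6-FP change of Fpr1 from -0.62 to 0.0325. The cause was not tested.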
